A study of Rattus norvegicus with 12 samples.

Results

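The genes described here are 10 chaperones and stress factors of the endoplasmic reticulum (ER), namely Hspa5, Hsp90b1, Calr, Canx, Pdia3, Pdia4, Herpud1, Xbp1, Atf4 and Ddit3, chosen by gene symbol in the platform annotation. All 10 of 10 had a probe, 1 each, among 22523 probes for 13337 named genes, so no choice between probes arose. They were measured in the duodenal mucosa of female Sprague Dawley rats, an outbred strain, aged 9 weeks, on single-colour Illumina bead arrays, 1 array per rat and 12 in all. For the 6 swimming rats, 1 week of training led up to nonstop swims of 1 hour per day, on 5 days per week within a protocol of 2 weeks, in water of 30 to 32 °C. The 6 control rats stayed sedentary in a pool for the same 2 weeks, so exposure to the pool is shared by both groups. The cells were a scraping of the mucosal surface of a duodenal segment of 10 cm, which can carry cells other than enterocytes. The comparison of the groups asks what repeated endurance exercise changes in the RNA of this mucosa.

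The ER folds secreted and membrane proteins, and a surplus of unfolded protein starts the unfolded protein response. In that response the sensors IRE1, PERK and ATF6 raise the transcription factors XBP1, ATF4 and cleaved ATF6, which turn on chaperones, foldases and the machinery that sends misfolded proteins to the proteasome. XBP1 is made active by splicing of its RNA and ATF4 mainly by translation, so an RNA level on an array reports neither step. The duodenal mucosa holds several cell types with a large ER, among them goblet, Paneth and plasma cells, and the neighbouring exocrine pancreas is another.

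The promoters of the chaperone genes are shown first because they carry the letters that the response reads. The ER stress response element ERSE is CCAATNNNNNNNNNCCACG, in which NF-Y is known to bind the first 5 letters and ATF6 the last 5. Windows from 250 bases before to 50 after the annotated start were taken from RefSeq (rat build GRCr8) and matched 9 of the 10 genes by symbol. Both strands were searched. A full ERSE stood in 5 of these 9 windows (55.6%), against 22 of all 33469 windows of that length (0.0657%). The 22 include these 5. The motifs searched were picked as known elements of this response, so such shares are a description and not a test. The windows lie at chr3:38452766-38453065 on the plus strand for Hspa5, chr7:23012244-23012543 on the minus strand for Hsp90b1, chr19:40213117-40213416 on the plus strand for Calr, chr10:35157808-35158107 on the minus strand for Canx and chr14:84604373-84604672 on the plus strand for Xbp1. That of Herpud1 lies at chr19:10614658-10614957 on the minus strand. Each is printed 5′ to 3′ along the gene, with motif matches in capitals.
Hspa5: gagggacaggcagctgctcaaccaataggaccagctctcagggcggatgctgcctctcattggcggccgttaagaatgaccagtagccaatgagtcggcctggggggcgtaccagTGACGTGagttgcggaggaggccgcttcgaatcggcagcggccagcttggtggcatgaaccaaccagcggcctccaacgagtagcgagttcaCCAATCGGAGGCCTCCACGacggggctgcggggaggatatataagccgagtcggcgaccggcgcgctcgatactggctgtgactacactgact
Hsp90b1: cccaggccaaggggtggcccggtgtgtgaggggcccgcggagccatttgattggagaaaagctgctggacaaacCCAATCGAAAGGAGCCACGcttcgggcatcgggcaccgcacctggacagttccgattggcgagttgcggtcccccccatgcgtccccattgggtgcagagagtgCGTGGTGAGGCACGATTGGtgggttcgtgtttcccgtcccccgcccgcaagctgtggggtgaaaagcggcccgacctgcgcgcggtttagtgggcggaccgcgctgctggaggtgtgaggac
Calr: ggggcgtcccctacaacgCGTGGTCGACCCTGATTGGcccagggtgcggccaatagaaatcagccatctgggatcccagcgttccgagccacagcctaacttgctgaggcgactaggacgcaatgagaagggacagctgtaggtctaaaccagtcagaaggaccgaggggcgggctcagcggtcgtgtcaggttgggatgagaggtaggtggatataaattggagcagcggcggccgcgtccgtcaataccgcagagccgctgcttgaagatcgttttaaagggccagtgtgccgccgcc
Canx: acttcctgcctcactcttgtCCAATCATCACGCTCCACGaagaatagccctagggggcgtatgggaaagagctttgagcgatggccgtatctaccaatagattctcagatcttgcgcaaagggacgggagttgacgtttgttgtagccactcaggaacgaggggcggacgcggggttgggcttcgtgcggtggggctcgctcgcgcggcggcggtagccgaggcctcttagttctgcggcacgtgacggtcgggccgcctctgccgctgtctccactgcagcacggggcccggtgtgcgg
Xbp1: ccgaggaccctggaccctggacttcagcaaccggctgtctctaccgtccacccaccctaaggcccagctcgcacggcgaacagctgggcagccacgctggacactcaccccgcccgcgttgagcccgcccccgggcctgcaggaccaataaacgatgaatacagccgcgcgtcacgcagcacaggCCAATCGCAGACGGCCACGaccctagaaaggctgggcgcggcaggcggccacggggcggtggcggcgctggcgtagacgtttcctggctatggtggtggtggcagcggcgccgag
Herpud1: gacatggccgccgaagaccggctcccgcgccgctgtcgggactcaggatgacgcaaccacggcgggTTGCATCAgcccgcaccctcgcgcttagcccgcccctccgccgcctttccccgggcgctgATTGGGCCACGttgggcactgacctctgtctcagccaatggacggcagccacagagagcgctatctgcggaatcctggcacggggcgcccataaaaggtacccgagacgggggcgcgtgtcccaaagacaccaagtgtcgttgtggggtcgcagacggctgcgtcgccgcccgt
The ERSE of Hspa5 began 43 bases before the start and that of Xbp1 65 bases before it. Hsp90b1 held 2 matches, beginning 176 bases before the start on the strand of the gene and 72 bases before it on the opposite strand. Calr had its match 232 bases before the start, on the opposite strand, and Canx 230 bases before it. Hspa5 also held TGACGTG, the core of the element that XBP1 and ATF6 bind, 135 bases before the start, a motif found in 1.81% of all windows. Herpud1 held no ERSE but the related ERSE-II, ATTGGNCCACG, 124 bases before the start, which 17 of all windows hold (0.0508%). It also held TGATGNAA, the form of the amino acid response element to which ATF4 is known to bind, 184 bases before the start and on the opposite strand, a motif in 3.98% of windows. None of these motifs overlapped another in the windows printed, and none stood in the windows of Pdia4, Atf4 and Ddit3. A match describes these letters only and does not show that a factor was bound.

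**Figure D1:**
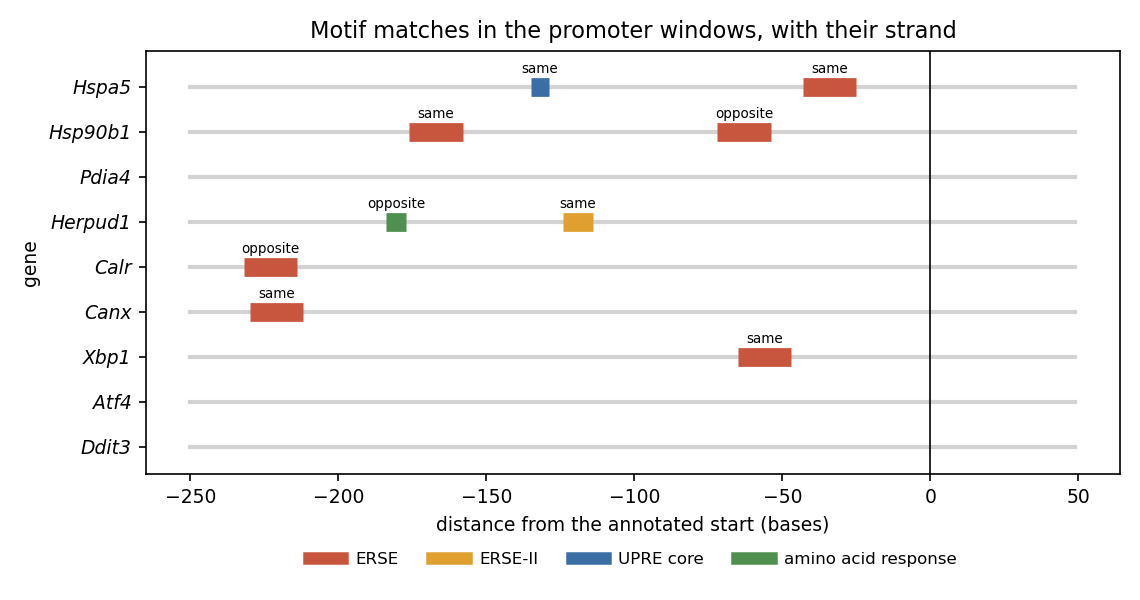
Positions of motif matches in the promoter windows of the 9 genes with a RefSeq window, as distance in bases from the annotated start (vertical line), with the strand relative to the gene above each match. ERSE matches stand in 5 genes, 2 of them in Hsp90b1, and Herpud1 carries the ERSE-II.

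Several arrays stood apart or were nearly alike. The array labelled swimming 5 had a mean of 8.73 log2 over 9 measured enterocyte genes, against 12.3 to 12.7 in the other 11 arrays, and a mean of 10.6 over 7 genes of the large intestine against 7.73 to 8.40, so it went against its duodenal label. Controls 4 and 6, swimming 4 and 6, and control 3 and swimming 3 formed 3 near-identical pairs, with a spread of log2 differences over bright probes of 0.0775 to 0.160 against at least 0.219 in the 52 other pairs that do not involve swimming 5. Both pairs within a group were averaged, which leaves 5 samples per group. Control 3 and swimming 3 carry different group labels, so almost the same profile entered both groups. Nothing in the labels says more about how the samples were taken, so p-values measure the spread between these samples, and their small number limits the precision. Intensities are on a log2 scale after background correction and quantile normalization. In bulk RNA, fewer cells of a type and less RNA per cell cannot be told apart.

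None of the 10 genes differed between swimming and control rats in the test over all probes. limma with Benjamini-Hochberg adjustment called 0 of 10, and 0 of 22523 probes overall (0%), with a smallest adjusted p of 0.986. At an unadjusted p under 0.05 it listed 1 of the 10, Herpud1, where 2.8% of all probes were listed, 1.23% in the direction of Herpud1, higher in swimming. In none of the 10 genes were the groups free of overlap, which 0.262% of probes were with swimming higher and 0.311% with swimming lower. The difference was above 0 in 8 of 10 genes, against 49.7% of all probes, and its median over the 10 was 0.14 log2 against -0.0010 over all probes. The 10 genes come from the same arrays and several vary together, so they are not 10 separate observations. In the alternatives of processing and samples that were run, 6 to 8 of the 10 read higher in swimming rats, 6 of them without the sample of controls 4 and 6. That median was then 0.063. Several marker lists moved with the groups. Exocrine pancreas genes read higher in swimming rats in 16 of 18 measured, at a median of 0.90. This median was 1.30 without swimming 5, and 1.53 also without control 3 and swimming 3. The mean of the list was 10.0 in swimming 2, 7.48 in swimming 1, 9.11 in swimming 3 and 9.12 in the near-identical control 3. In all other arrays of both groups it lay between 6.48 and 6.76, so the difference rests on few arrays. Red blood cell genes read lower in 7 of 7, at a median of -0.10 (-0.16 without swimming 5), and stroma genes higher in 8 of 10, at 0.17. Enterocyte genes read lower in 9 of 9 at -0.44, genes of the proximal small intestine lower in 8 of 8 at -0.48 and genes of the large intestine higher in 7 of 7 at 0.68. Without swimming 5 the medians of these last 3 lists were 0.057, -0.0052 and 0.071. Their part in the differences of the 10 genes was not tested.

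**Figure D2:**
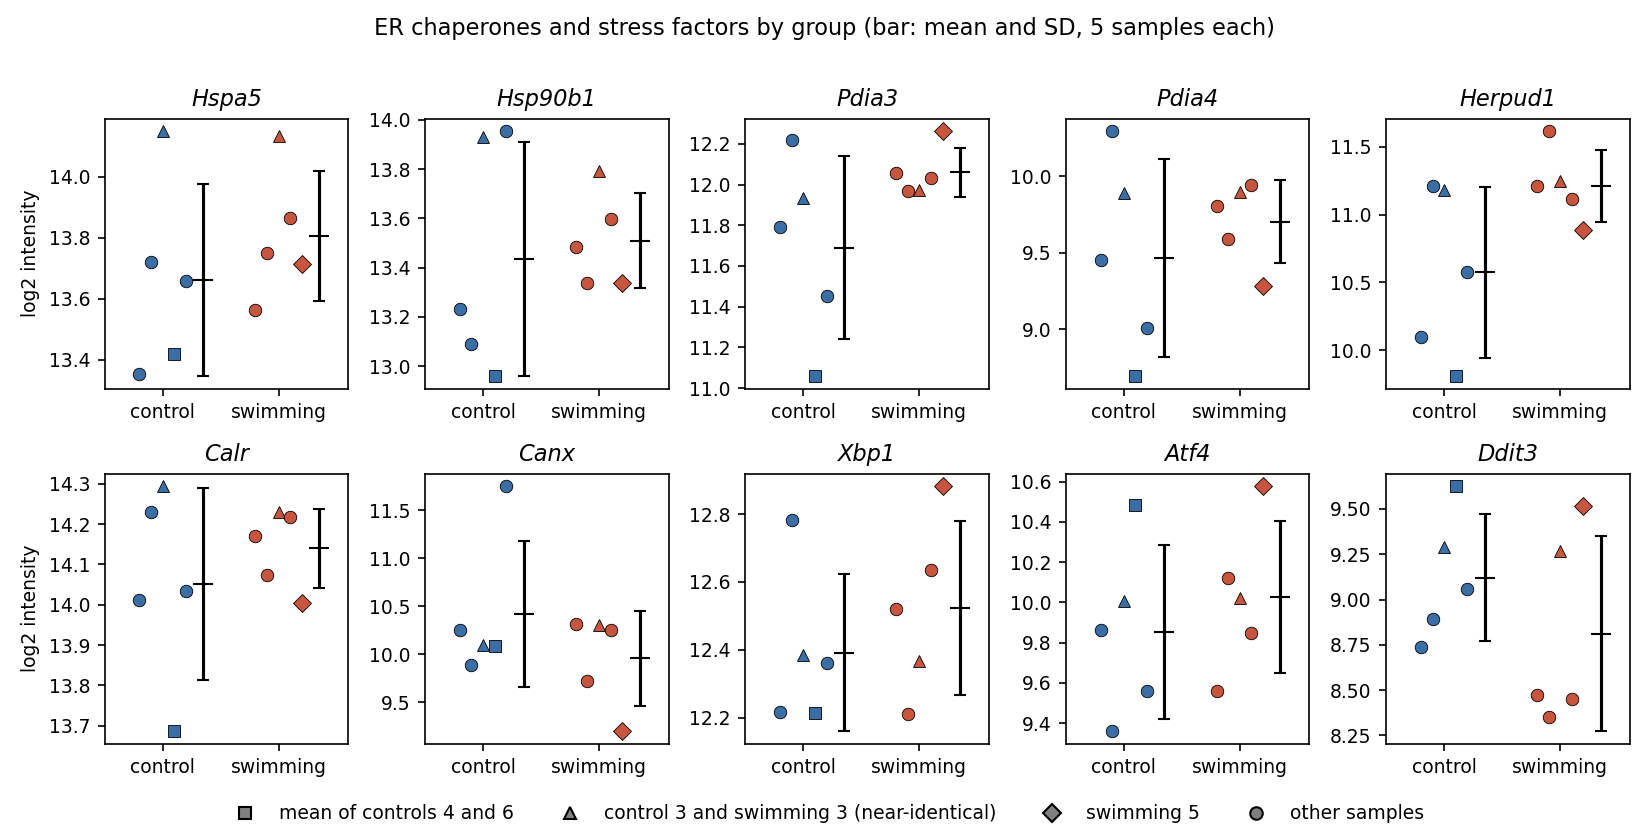
Log2 intensity of each gene in the 5 control and 5 swimming samples, with the mean and SD beside the points. The groups overlap in every gene, and the sample averaged from controls 4 and 6 (square) is the lowest of the 10 in Hsp90b1, Pdia3, Pdia4, Herpud1 and Calr.

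Of the chaperones, Hspa5 encodes BiP, the HSP70 of the ER lumen that also holds the stress sensors inactive. It read 13.35, 13.72, 14.15, 13.42 and 13.66 in control 1, 2, 3, the mean of 4 and 6, and 5, and 13.56, 13.75, 14.13, 13.86 and 13.71 in the swimming samples in the same order. The near-identical control 3 and swimming 3 were the highest of each group. The means were 13.66 ± 0.31 and 13.80 ± 0.21 (SD, n = 5 each), a difference of 0.14 (SE 0.16) with a 95% interval from -0.20 to 0.49. It was 0.17 without swimming 5, and it ranged from 0.062 without swimming 3 to 0.27 without control 3. Exocrine pancreas genes, 18 of 20 measured, also had high means in control 3 and swimming 3, 9.12 and 9.11. They were highest in swimming 2, at 10.0, where Hspa5 read 13.75. Their part in the Hspa5 values was not tested.

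Hsp90b1 encodes GRP94, the HSP90 of the ER. It read 13.23, 13.09, 13.93, 12.96 and 13.96 in the controls and 13.48, 13.34, 13.79, 13.60 and 13.34 in the swimming samples. Both ends of the range were control samples, with controls 5 and 3 high and the sample of controls 4 and 6 low. The difference was 0.076 (SE 0.21). Its sign depended on single samples, since it was -0.042 without controls 4 and 6 and -0.0099 without control 2.

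Calr encodes calreticulin, a soluble chaperone that binds the sugar chains of folding glycoproteins and stores calcium in the ER. It read 14.01, 14.23, 14.29, 13.69 and 14.03 in the controls and 14.17, 14.08, 14.23, 14.22 and 14.01 in the swimming samples. Only the sample of controls 4 and 6 lay apart, below all others. The difference was 0.089 (SE 0.11), and -0.0024 without that sample.

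Canx encodes calnexin, the membrane-bound relative of calreticulin. It read 10.25, 9.89, 10.10, 10.09 and 11.76 in the controls and 10.32, 9.72, 10.31, 10.26 and 9.19 in the swimming samples. Control 5 stood far above and swimming 5 below all other samples, and the remaining 8 lay between 9.72 and 10.32. The difference of -0.46 (SE 0.36) was -0.12 without control 5 and -0.27 without swimming 5. This was also the member with the largest gap within a near-identical pair, 0.60 between swimming 4 and swimming 6.

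Pdia3 and Pdia4 encode ERp57 and ERp72, disulfide isomerases of the ER, of which ERp57 works together with calreticulin and calnexin. Pdia3 read 11.79, 12.22, 11.93, 11.06 and 11.45 in the controls and 12.06, 11.97, 11.97, 12.03 and 12.26 in the swimming samples. The swimming samples lay close together and all above the control mean, while the controls spread over a wider range on both sides. The difference was 0.37 (SE 0.19, limma unadjusted p = 0.0784, adjusted p = 0.986), 0.32 without swimming 5 and 0.21 without controls 4 and 6. Pdia4 read 9.45, 10.29, 9.89, 8.69 and 9.01 in the controls and 9.80, 9.59, 9.89, 9.94 and 9.28 in the swimming samples. Control 2 was the highest and the sample of controls 4 and 6 the lowest of all. The difference was 0.24 (SE 0.28), and it ranged from 0.042 without controls 4 and 6 to 0.44 without control 2.

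Herpud1, a membrane protein of the ER that assembles the complex for degradation of misfolded proteins, had the largest difference upward of the 10. It read 10.10, 11.21, 11.18, 9.81 and 10.58 in the controls and 11.21, 11.62, 11.25, 11.12 and 10.88 in the swimming samples. Controls 2 and 3 reached the level of the swimming samples, and controls 1, 5 and the sample of 4 and 6 lay below every swimming sample. The means were 10.58 ± 0.63 and 11.21 ± 0.27 (SD, n = 5 each). The fitted difference was 0.64 (SE 0.27), a ratio of 1.56, with a 95% interval from 0.027 to 1.25 that is not adjusted for the number of probes. Its unadjusted p from limma was 0.0423 and its adjusted p 0.986, and it ranked 513 of 22523 probes by p. It was above 0 in all 21 alternatives, from 0.45 without controls 4 and 6 to 0.89 without control 3, swimming 3 and swimming 5 together. The adjusted p was at least 0.911 in all of them.

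Of the transcription factors, Xbp1 read 12.22, 12.78, 12.38, 12.21 and 12.36 in the controls and 12.52, 12.21, 12.37, 12.64 and 12.88 in the swimming samples. The highest value was that of swimming 5, and the difference of 0.13 (SE 0.14) was 0.042 without it and 0.23 without control 2. Goblet cell genes, 7 of 10 measured, had their highest means in swimming 5, at 11.1, and control 2, at 10.9, the same arrays in which Xbp1 was highest. Their part in the Xbp1 values was not tested. No splice form of Xbp1 was analysed here.

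Atf4, a transcription factor of the integrated stress response, read 9.86, 9.36, 10.01, 10.48 and 9.56 in the controls and 9.56, 10.12, 10.02, 9.85 and 10.58 in the swimming samples. Its highest values were in swimming 5 and in the sample of controls 4 and 6. The difference was 0.17 (SE 0.23), 0.034 without swimming 5 and 0.33 without controls 4 and 6. Ddit3 encodes CHOP, a factor that promotes cell death under prolonged ER stress and is a target of ATF4. It read 8.74, 8.89, 9.29, 9.63 and 9.06 in the controls and 8.47, 8.35, 9.27, 8.45 and 9.52 in the swimming samples. Swimming 1, 2 and the sample of 4 and 6 lay below every control, whereas swimming 3, the twin of control 3, and swimming 5 lay among the upper controls. The difference was -0.31 (SE 0.26, limma unadjusted p = 0.259), -0.49 without swimming 5 and -0.65 without control 3, swimming 3 and swimming 5. It was smaller in size in other settings, at -0.18 without controls 4 and 6, -0.19 without swimming 2 and -0.18 under median scaling. The value of -0.65 had an unadjusted p of 0.0104 and an adjusted p of 0.993 from limma, with 4 control and 3 swimming samples.

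**Figure D3:**
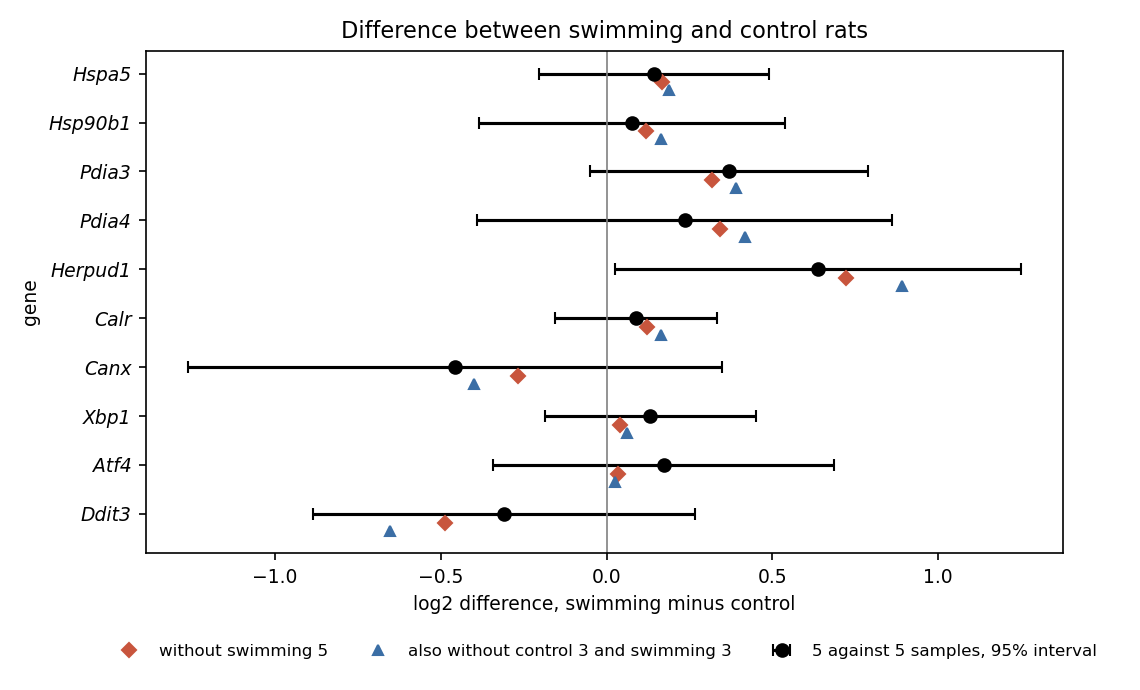
Difference between swimming and control rats for each gene, in log2, with its 95% interval from the fit of 5 against 5 samples (black), and the value without swimming 5 (red) and also without control 3 and swimming 3 (blue). Only the interval of Herpud1 leaves out 0 before adjustment, and 8 of the 10 genes lie above 0.

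The scatter within groups was compared as a description. The SD of the controls was larger in 8 of 10 genes, against 46.7% of the probes brighter than the median probe, and over 2 times larger in 5 of 10, against 12.1% of those probes. Without swimming 5 these were 9 of 10 genes against 68.5% of probes, and 6 of 10 against 25%, so a wider scatter among controls was then common to most bright probes. With all samples the 5 were Pdia3 with a ratio of 3.74 (10.2 without swimming 5), Hsp90b1 with 2.46, Calr with 2.45, Pdia4 with 2.39 and Herpud1 with 2.38. Leaving out single samples was tried after these values had been seen. Without the sample of controls 4 and 6 the ratio of Calr was 1.46 and the others of these 5 lay between 2.01 and 2.65, and without control 5 that of Canx was 0.297 instead of 1.53. Ratios of SDs over 5 samples are imprecise and were not tested. Between the arrays of a near-identical pair, the 10 genes differed by a median of 0.063 log2 over 30 gaps. All 10 are among the bright probes by which these pairs were found, so small gaps follow from that choice. The median range of the 10 genes over the 11 arrays other than swimming 5 was 1.21. A range over 11 arrays is wider by construction than a gap between 2, so the values do not measure technical noise.

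The sample of controls 4 and 6 was the lowest of 10 in 5 genes and the highest in Ddit3, and it was second only to swimming 5 in Atf4. The share of all probes that were lowest in this sample is not given here. The count therefore does not show a trait particular to the ER genes. The raw median intensities of these arrays, 70.9 and 70.1, were lower than those of all others except swimming 6. Swimming 6 had the lowest, 62.7, and its near-identical partner swimming 4 had 83.8. The part of raw brightness in these values was not tested. In the same 2 control arrays, stroma and smooth muscle genes (10 of 12 measured) had the lowest means, 6.86 and 6.78 against at least 7.18 elsewhere, and red blood cell genes (7 of 8 measured) the highest, 8.50 and 8.57 against at most 8.42. Leaving swimming 5 aside, controls 4 and 6 also had the lowest means of proximal small intestine genes, 11.66 and 11.68 against at least 11.98. The same held for enterocyte genes, 12.3 and 12.33 against at least 12.42, and for large intestine genes, 7.73 and 7.74 against at least 8.02. The part of these lists in the chaperone values was not tested.

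**Figure D4:**
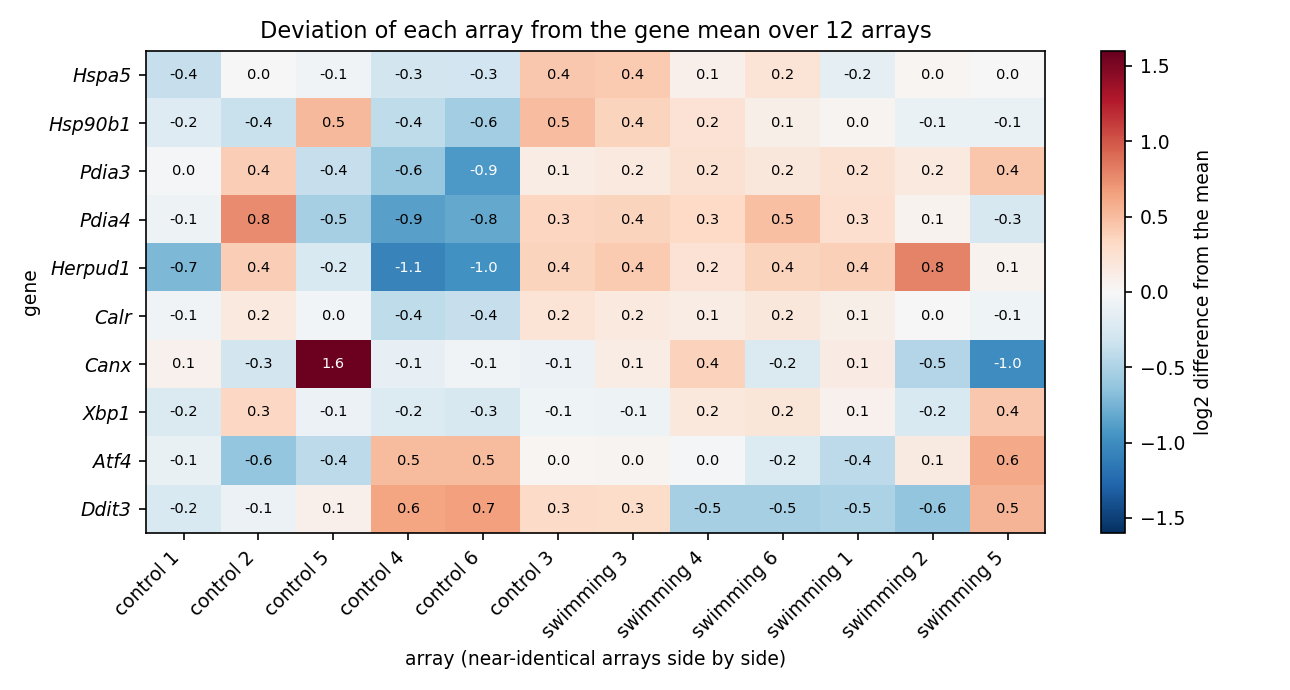
Deviation of each of the 12 arrays from the mean of its gene, in log2, with near-identical arrays side by side. Controls 4 and 6 are low in Pdia3, Pdia4, Herpud1 and Calr and high in Atf4 and Ddit3, and control 5 is high in Canx.

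Across rats, the closest correlations were among Pdia3, Pdia4, Calr and Herpud1, and 2 pairs passed adjustment. Co-variation was measured over 8 independent duodenal samples, in which all near-identical arrays were averaged and swimming 5 was left out. The closest pair was Pdia3 with Pdia4, at Pearson r = 0.965 (exact permutation test, two-sided, p = 0.000248, adjusted over the 45 pairs 0.0112). Spearman's rho was 0.881 for it (exact p = 0.00724, adjusted 0.163), and r was 0.902 without controls 4, 6 and 5, whose 2 samples lay farthest from the median of Pdia3. Pdia4 with Calr followed at r = 0.903 (exact permutation p = 0.000918, adjusted 0.0207), with rho of 0.905 (exact p = 0.00456, adjusted 0.163) and r of 0.842 without the same 2 samples. These 2 pairs were the only ones of 45 that passed with Pearson's r, and 0 passed with rho. The count depended on single samples and on the scaling. It was 0 without controls 4 and 6, 1 with swimming 5 added and 11 under median scaling. For centring each group on its own mean, control 3 and swimming 3 were left out, which leaves 7 samples. Reordering these only within their groups gives too few orders for a single pair to pass. The count of 0 found there therefore does not show that a correlation was lost. With each group centred, r was 0.968 for Pdia3 with Pdia4 and 0.885 for Pdia4 with Calr.

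Of all 45 pairs, 24 had r above 0 (53.3%, against 50.2% of the pairs among 7868 bright named genes), so the members did not vary as a single block. Above 0.8 were 5 pairs (11.1%), against 2.32% of those pairs, and below -0.8 were 0, against 2.01%. The others of the 5 were Pdia3 with Calr at 0.909, Pdia3 with Herpud1 at 0.812 and Herpud1 with Calr at 0.802, so all 5 lay among Pdia3, Pdia4, Calr and Herpud1. Pdia3 with Calr had an adjusted exact permutation p of 0.0588. Without the 2 samples farthest from the median of the first gene, these 3 correlations were 0.675, 0.612 and 0.275. The last therefore rests on controls 1, 4 and 6.

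Among Hspa5, Hsp90b1, Calr, Pdia3, Pdia4 and Herpud1, all 15 correlations were above 0, with a median of 0.693. With each group centred, 13 of 15 were above 0 and the median was 0.561, with both exceptions among the pairs of Hsp90b1. Without controls 4 and 6, 12 of 15 were above 0 and the median was 0.534. Hsp90b1 was the loosest of them, with r between 0.0796 and 0.609 to the other 5. Canx did not follow this set, with r below 0 to 5 of its 6 partners, and 0.663 to Hsp90b1, which was also high in control 5. With each group centred, 3 of these 6 were above 0 and their median was 0.024. The r of 0.663 between Canx and Hsp90b1 was 0.385 without control 5 and the pair of control 3 and swimming 3. With each group centred it was 0.964, over 7 samples that keep control 5 but leave out that pair. Leaving Canx out of this set was decided after these values had been seen.

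Atf4 and Ddit3 had r below 0 to all 6 of these genes, 12 of 12 pairs, with a median of -0.531 and values from -0.706 to -0.0446. With each group centred the 12 pairs were again below 0, with a median of -0.664. The pattern rests on the sample of controls 4 and 6, without which 6 of the 12 pairs were above 0 and the median was 0.049. No pair passed adjustment, and Ddit3 with Canx stood at 0.20. The strongest was Pdia3 with Ddit3 at -0.706 (exact permutation p = 0.0464, adjusted 0.209), and it was -0.015 without the sample of controls 4 and 6 and control 5, on which it rests. Atf4 with Xbp1 stood at -0.718 (exact permutation p = 0.0459, adjusted 0.209) and at -0.0998 with swimming 5 added, where both genes were high. Atf4 and Ddit3 correlated with each other at only 0.403. Xbp1 had r above 0 to all 6 folding genes, with a median of 0.545 and up to 0.747 with Pdia4, and 0 of these pairs passed adjustment. With swimming 5 added, 5 of the 6 were above 0, their median was 0.396 and Pdia4 stood at 0.452. Without controls 4 and 6, 5 of the 6 were above 0.

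**Figure D5:**
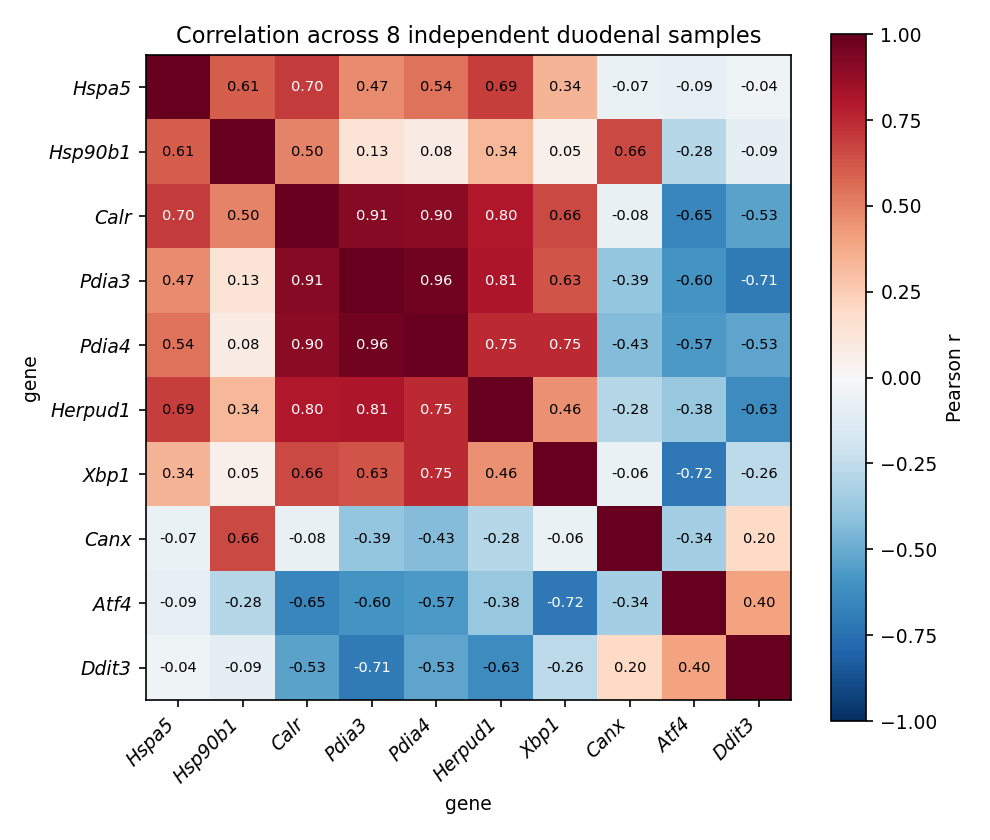
Pearson correlation between the genes over 8 independent duodenal samples. Calr, Pdia3, Pdia4 and Herpud1 form the block with r from 0.75 to 0.96, and Atf4 and Ddit3 are below 0 with the folding genes except for Ddit3 with Canx, a pattern that rests on the sample of controls 4 and 6.

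Genes outside the 10 lay closer to some of them than the members did. Over the same 8 samples, the genes with the highest r to Hspa5 among 7867 other bright named genes were Cnksr1 (0.931), Micalcl (0.915), Ece1 (0.911), Cyp2b15 (0.881) and Ptpn21 (0.847). The closest member to Hspa5, Calr, was in place 100. For Atf4 they were Gprc5a (0.972), Ndufv2 (0.970), Clk1 (0.969), Kmt5b (0.954) and Hook1 (0.947), and for Ddit3 they were Crtc2 (0.953), Ggt7 (0.953), Pan3 (0.951), Prrg4 (0.940) and Serpinb6a (0.920). With swimming 5 added, r was 0.345 for Cyp2b15, 0.122 for Hook1, 0.328 for Serpinb6a, 0.599 for Kmt5b and 0.726 for Cnksr1. The rest then lay between 0.780 for Ptpn21 and 0.979 for Clk1. The highest of so many values over 8 samples is high by selection, and these values are a description.

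In the wider ER pathway, 86 of 103 further listed genes were measured and 0 passed the test, with 3 at an unadjusted p under 0.05 (3.49%, against 2.8% of all probes). Of 20 other chaperones and foldases, 14 read higher and 6 lower in swimming rats, with a median difference of 0.075. Dnajc10, a disulfide reductase, differed by 0.45 (SE 0.26; 0.24 without swimming 5), Erp29, a chaperone of the isomerase family, by 0.33 (SE 0.19; 0.16 without swimming 5), and Fkbp2, a prolyl isomerase, by -0.21 (SE 0.14; -0.12 without swimming 5). The mean of the whole chaperone list was 9.94 and 9.95 log2 in controls 4 and 6 and 10.15 to 10.32 in the other arrays.

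Of 16 other degradation genes, 5 read higher and 11 lower, with a median of -0.051 (-0.028 without swimming 5). Its relative Herpud2 differed by -0.25 (SE 0.10). Edem1, which hands misfolded glycoproteins to degradation, differed by 0.18 (SE 0.076) and Edem3 by -0.18 (SE 0.15). The probes of Edem1 and Edem3 were dimmer than the median probe. Of 19 genes of translocation, signal peptide removal and glycosylation, 11 read higher and 8 lower, with a median of 0.047. Srpra, the receptor for the signal recognition particle, differed by 0.44 (SE 0.17), Ssr3, a subunit of the translocon-associated complex, by 0.37 (SE 0.20), and Sec11a, a catalytic subunit of signal peptidase, by 0.20 (SE 0.14).

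Of 10 other sensors and transcription factors, 5 read higher and 5 lower, with a median of -0.061. Without swimming 5, 3 read higher and the median was -0.098. Creb3 differed by -0.17 (SE 0.10; -0.10 without swimming 5), the sensor Atf6, on a probe dimmer than the median probe, by -0.14 (SE 0.086), and Mbtps2, the protease that releases ATF6, by -0.23 (SE 0.16; -0.13 without swimming 5). Of 21 targets of the integrated stress response, 16 read higher and 5 lower, with a median of 0.064. The amino acid exchanger Slc7a5 differed by 0.27 (SE 0.13), Phgdh, the first enzyme of serine synthesis, by 0.45 (SE 0.23), and Sqstm1, the autophagy receptor p62, by 0.13 (SE 0.082). The adjusted p from limma was 0.986 for each gene named from these 5 lists, and the medians compare with -0.0010 over all probes.

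The other genes with an ERSE in the window gave no call either. Of 16 other symbols with the motif 9 were measured, 6 reading higher and 3 lower, with a median of 0.089 and a range from -0.25 to 0.35, and 0 passed with limma (0 at an unadjusted p under 0.05). Among them were Creld2, an ER stress-induced protein, at 0.22 (SE 0.23), and Dnajc3, the inhibitor of PERK known as p58IPK, at 0.22 (SE 0.16; 0.087 without swimming 5). The 3 lower were Zfand2a at -0.25 (SE 0.26), Zfp57 at -0.064 and Derl3, on a probe dimmer than the median probe, at -0.048. Of 16 other genes with the ERSE-II of Herpud1, 9 were measured, 5 higher and 4 lower, with a median of 0.026, with 0 passing and 0 at an unadjusted p under 0.05, among them the BiP cofactor Dnajb11 at 0.24 (SE 0.16). The 4 lower with the ERSE-II were Nucb1 at -0.29, Cdc27 at -0.099, Prkcz at -0.092 and Defb52 at -0.028. Both sets of genes were picked by the letters of their promoters.

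Of the markers of other cells 0 passed with limma. At an unadjusted p under 0.05 were 2 of 7 red blood cell genes, 2 of 7 large intestine genes, 1 of 10 stroma genes and 1 of 5 plasma cell genes. Of all probes, 2.8% were listed at that level. The median difference of the large intestine genes was 0.68, and 0.071 without swimming 5. Plasma cell genes (5 of 10 measured) averaged 7.07 to 7.68 in control and 6.94 to 7.46 in swimming arrays, and Paneth cell genes (7 of 8) 8.67 to 9.94 and 8.64 to 10.0. Goblet cell genes averaged 10.3 to 10.9 and 10.3 to 11.1, and exocrine pancreas genes 6.49 to 9.12 and 6.48 to 10.0. Stroma and smooth muscle genes averaged 6.78 to 8.04 and 7.27 to 8.09, and red blood cell genes 8.05 to 8.57 and 7.18 to 8.16. Genes of the proximal small intestine (8 of 10) averaged 11.7 to 12.3 in the 11 arrays other than swimming 5 and 7.96 in it. The part of these cells in the values of the 10 genes was not tested.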

How the data were processed

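The deposited raw table gives average bead signals, which per the file headers are linear intensity values not yet normalized, with array medians from 62.7 to 88.8 and no value below 0. A second table of processed intensities deposited by the authors is background-subtracted and scaled by a method not given in the sources used here. It served as an alternative. With limma 3.58.1 (R 4.3.3), the raw values received normexp background correction at an offset of 50, then quantile normalization between arrays and log2 transformation.

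Near-identical arrays were found by comparing how far 2 arrays spread over 4933 bright probes, with a mean log2 above 8, and over 5147 dim probes, with a mean under 6.1. A pair was taken as near-identical where the bright spread was the smaller. Within a group such pairs were averaged before every fit, mean and SD. All 22523 probes were fitted with lmFit and eBayes, two-sided, with Benjamini-Hochberg adjustment and calls at adjusted p under 0.05. In simulated data of this comparison, with 200 of 22523 probes changed, 83% were recovered at a change of 1 log2 and 95.5% at 2. These shares were not computed for the 10 genes and need not hold for them. Over the 8 samples their SD exceeded that of 43.3% (Calr) to 97.2% (Herpud1) of the probes brighter than the median probe.

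Correlations used exact permutation of 8 samples (40320 orders, Python 3.11.15). Symbols came from the platform annotation, and 13752 probes matched the GRCr8 gene table by identifier. Promoter windows are RefSeq's. The 10 genes, the 5 ER lists, the cell markers and the tests were chosen with earlier results of these data known. Named genes are the 10, from each ER list the 3 others with the smallest p, and for Hspa5, Atf4 and Ddit3 the 5 genes with the highest r. Genes named for an ERSE or ERSE-II fall outside this rule. Alternatives changed the background correction, normalization, table, probe filter, variance model, averaging, samples and correlation measure.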

Additional observations from a re-analysis of the deposited data

Results flagged for a closer look

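Canx in control 5 stood apart from its group. It read 11.76 log2, while the other 4 control samples lay between 9.89 and 10.25, and the gap to the nearest was 0.807 of the whole range of the group, above the limit of 0.71 for 5 samples. Of 20 groups of values examined this way (10 genes in 2 groups), 1 was past the limit, and chance passes about 1 in 20. Hsp90b1 was also highest in control 5, at 13.96, close to the 13.93 of control 3.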

How the results depend on the processing

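The number of probes called was 0 in every setting except with the authors' processed table, where it was 2, the probe of Tex36 and an unnamed probe, each with 4 of 10 values at the floor of 1. No member was called in any of the 21 alternatives, and the median difference over the members stayed between 0.063 and 0.21. The sign turned for Hsp90b1 without control 2 (-0.0099) and without controls 4 and 6 (-0.042), and for Calr without controls 4 and 6 (-0.0024). With 1 sample left out, Hsp90b1 ranged from -0.042 to 0.21 and Calr from -0.0024 to 0.15. With the replicate number as a block 0 probes were called, with 541 at an unadjusted p under 0.05 against 630 without it, and 0 members. Whether the numbers pair the samples is not stated in the labels. Same-numbered samples correlated at -0.055 to 0.71, and only control 3, near-identical to swimming 3, correlated best with its own number. These values cannot settle a pairing, since sample 4 of each group is an average of 2 arrays. Swimming 5 also goes against its duodenal label. The block left the median difference over the members at 0.14. Member pairs called were 2, against 11 under median scaling, 1 under cyclic loess, 0 with Spearman's rho and 1 with swimming 5 added. With each group centred 0 were called, but the orders within the groups of these 7 samples are too few for a single pair to pass. Leaving out 1 sample at a time gave 0 to 3 called pairs and a median correlation from 0.028 to 0.37, against 0.080. The cause was not tested. The mean of all probes of a gene gives the same values as the brightest, since each member has 1 probe. The number of arrays limits what can be seen: the 95% intervals of the members reached 0.24 to 0.80 log2 to each side.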
